A study of Callithrix jacchus with 3 samples.

Results

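The protein-coding transcripts of adult common marmoset testis were grouped by the length of genome they cover and by how many transcripts their gene listed. Of 18365 transcript entries in the RNA-seq table, 16739 were annotated as protein-coding, and 15646 of these lay on the 22 numbered chromosomes. Those 15646 entries, which belonged to 12211 gene accessions of the table, are described here. Genomic span was the end minus the start of an entry, introns included, and was divided into under 2 kb, 2 to 10 kb, 10 to 50 kb, 50 to 200 kb and over 200 kb. Transcript number was the number of entries listed under 1 gene accession.

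The series held 3 datasets of testis RNA and small RNA from this New World monkey (Callithrix jacchus). The RNA-seq dataset came from wild-type testis, and its labels give 2 replicates and ages of 41 and 51 months. RNA was isolated whole from dissected frozen testis with a miRNeasy kit and made into strand-aware mRNA libraries, per the labels. Its values were deposited as 1 column, so no value below has a replicate error and no difference was tested.

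Spermatogenesis takes place along the seminiferous tubule, where spermatogonia, spermatocytes and spermatids develop among Sertoli cells, with Leydig cells between the tubules. Late spermatids replace histones with transition proteins and then with protamines, which are small basic proteins encoded by compact genes. Many testis genes are intronless copies of genes used elsewhere, whereas large adhesion and neuronal genes owe their span to long introns, and alternative transcripts of 1 gene can differ in either end or in their exons.

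Values were RPKM, reads scaled by transcript length and by the number of mapped reads, which are per length and so meant for setting genes side by side. How well this scaling held for the shortest entries, of 128 bases upward, was not tested. The table held values above 0 alone, down to 0.000844 RPKM, and no counts, so the depth behind each value is unknown and a transcript at 0 has no entry. The genome build is not given in the sources used here, and positions are printed as the table gives them. Some defining markers of testis cells were high: PRM1 (protamine) was at 7177 RPKM, TNP1 (transition protein) at 1678, the Leydig cell hormone INSL3 at 404 and the Sertoli cell gene CLU at 68.0. Others were lower than these. STAR of Leydig cells was at 4.91, above the median of 1.91 for all entries, and AMH of Sertoli cells was at 0.148, below it. Of 20 Sertoli cell genes listed, 10 were found and 3 reached 10 RPKM, a level reached by 21.8% of all genes with a symbol. In whole tissue, fewer cells of a type and less RNA per cell cannot be told apart.

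Entries of middle span had the highest medians, and those at both extremes the lowest. The median was 0.643 RPKM for the 1421 entries under 2 kb, 1.49 for the 3114 of 2 to 10 kb, 2.36 for the 6309 of 10 to 50 kb, 2.29 for the 3923 of 50 to 200 kb and 1.01 for the 879 over 200 kb, against 1.91 for all entries. Of all entries, 61.8% were at or above 1 RPKM. That share was 44.5% under 2 kb, 56.6% at 2 to 10 kb, 66.3% at 10 to 50 kb, 67.7% at 50 to 200 kb and 50.2% over 200 kb. Of all entries, 16.8% reached 10 RPKM, and the share was 18.0%, 17.6%, 18.4%, 15.5% and 6.60% from the shortest class to the longest. The class over 200 kb thus had the fewest entries at this level for its size. In 20 bins of nearly equal size, the median was 0.577 RPKM in the bin of shortest entries, reached 2.78 for spans of 35.1 to 42.3 kb and was 1.01 in the bin from 212.6 kb upward. The plot of RPKM over span bins shows this hump, and also that the quartiles of every bin were much further apart than the medians of different bins.

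**Figure D1:**
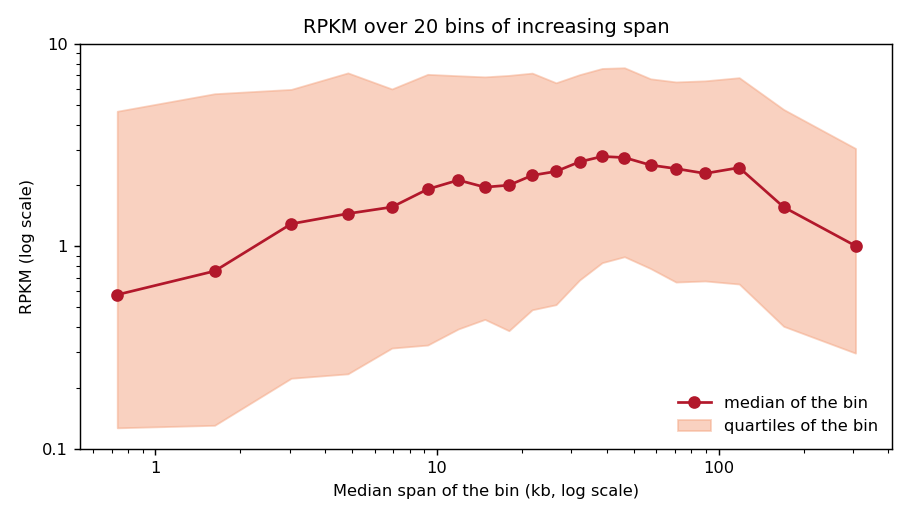
Median (points) and quartiles (shaded) of RPKM in 20 bins of increasing span, each of 781 to 784 protein-coding entries, with both axes on log scales. The median climbs to 2.78 RPKM in the bin of 35.1 to 42.3 kb and is 1.01 in the last bin.

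A single rank correlation described this shape poorly. Across the 15646 entries of this column, Spearman's rho between span and RPKM was 0.0615. It was 0.135 over the 10844 entries up to 50 kb and -0.147 over the 4802 longer ones. Among the 9669 entries of at least 1 RPKM it was -0.11, and the class medians among those were lower with each longer class, from 7.31 RPKM under 2 kb to 3.05 over 200 kb. Genes of 1 column share their library and are not independent samples, so these values describe the table and carry no p-value. Just under and just over each limit, within 10% of it, the medians were 1.42 (n = 135) and 0.562 (n = 104) at 2 kb, 2.02 (n = 317) and 1.78 (n = 302) at 10 kb, 2.82 (n = 415) and 2.43 (n = 345) at 50 kb, and 1.54 (n = 180) and 0.894 (n = 150) at 200 kb.

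The shortest entries had the widest spread and the highest values. Their quartiles were 0.123 and 5.53 RPKM, a 44.8-fold range, against 10.3-fold for entries over 200 kb. At the top, 3.38% of entries under 2 kb reached 100 RPKM, against 0.978% of all entries, and at the bottom 22.7% were below 0.1 RPKM, against 11.7%. No entry over 200 kb reached 100 RPKM, and the highest of them, a CDKN3 entry (a phosphatase of cyclin-dependent kinases), was at 62.0. The box plot of RPKM by span shows both tails.

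**Figure D2:**
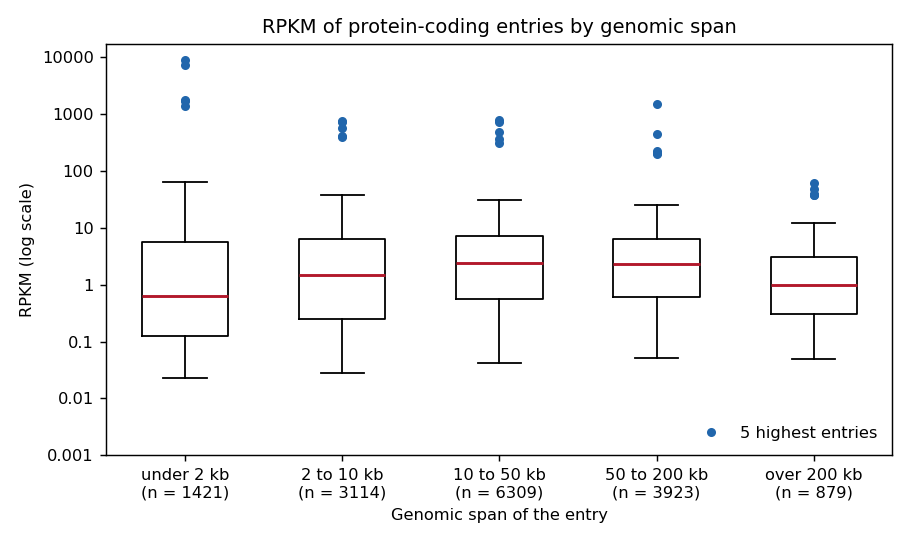
RPKM on a log scale for protein-coding entries in 5 classes of genomic span. Boxes show the quartiles with the median in red, whiskers the 5th and 95th percentiles, and blue points the 5 highest entries of each class, which reach 8965 RPKM under 2 kb and 62.0 RPKM over 200 kb.

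The 5 highest entries under 2 kb were each a single-transcript gene of at most 784 bases. The highest of the table's members was LOC100406067, an entry of 477 bases on the minus strand of chromosome 4 at 2657775 to 2658252, with 8965 RPKM. It lay in the gap between SLC17A4, whose 2 entries were at 2.27 and 2.45 RPKM, and LRRC16A, at 2.50 and 7.62, so its neighbours were far lower. PRM1 followed at 7177 RPKM on chromosome 12 (15851601 to 15852121, 520 bases), then LOC100395646 at 1795 on chromosome 2 (104352145 to 104352929), TNP1 at 1678 on chromosome 6 (133215684 to 133216245) and LOC100394811 at 1381 on chromosome 18 (3819853 to 3820417). The 3 LOC names had no symbol in the RefSeq gene table, so their products are not named here.

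Entries under 2 kb also differed in how they were annotated. A gene symbol could be given to 36.4% of them, against 83.5% of all entries. Their median was 1.36 RPKM with a symbol (n = 517) and 0.449 without (n = 904). In the other classes the medians with and without a symbol were closer, for example 2.35 and 2.45 RPKM at 10 to 50 kb. Within the class, the 183 entries under 500 bases had a median of 0.716 RPKM, yet 8.74% of them reached 100 RPKM. Pseudogene entries under 2 kb on the same chromosomes, which are not members, had a median of 0.538 (n = 743), near that of the protein-coding entries of this span.

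The 5 highest accessions of 2 to 10 kb each had 1 listed transcript. CKS2, a subunit that binds cyclin-dependent kinases, was at 754 RPKM (chromosome 1, 73343261 to 73348762). CATSPERZ, part of the sperm calcium channel CatSper, was at 719 (chromosome 11, 119858600 to 119862062). An entry named by its UniProt accession, B0KWD4_CALJA, followed at 561, INSL3 at 404 and LSM5, an Sm-like RNA-binding protein, at 398.

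At 10 to 50 kb, 3 of the 5 highest accessions listed a pair of transcripts. PPP1R2, an inhibitor subunit of protein phosphatase 1, had 949 RPKM in sum, 732 in an entry of 24.3 kb and 217 in one of 26.9 kb that began at the same 5′ base on the minus strand. MLF1, named as myeloid leukemia factor, had 815 in sum, of which 785 lay in its leading entry. ODF1, an outer dense fibre protein of the sperm tail, had 480 RPKM in 1 entry. FAM228B had 350 in sum and PHF7, a reader of histone marks in spermatids, 315 in 1 entry.

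Several of the highest long entries spanned other genes, among them much lower ones. PRM2, the second protamine, had 1484 RPKM in an entry of 128 kb on chromosome 12 (15856569 to 15984738). That span held SOCS1, a suppressor of cytokine signalling, at 0.0544 RPKM on the same strand, and a pseudogene entry of 307 bases at 26.6. PRM1 lay just outside it on the same strand. On chromosome 4, overlapping entries LOC100404008 (440 RPKM, 123 kb, minus strand), LOC100395785 (224 RPKM, 194 kb, plus strand) and LOC100400257 (199 RPKM, 162 kb, minus strand) all covered HFE, an iron-handling gene, whose 2 entries were at 1.602 and 1.104. LOC100395785 and LOC100400257 also covered the shorter LOC100404008 entry, of 93.1 kb and at 196 RPKM, so not all genes covered were low. RPKM is divided by transcript length, not span, so such long entries are high per exonic base as the table defines the transcript.

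Entries that held a whole member entry of another accession were more frequent at long spans. They made up 14.9% of entries over 200 kb, 7.39% at 50 to 200 kb and 0.983% at 10 to 50 kb. Over 200 kb, the 131 entries that held another had a median of 1.62 RPKM and the other entries 0.908, with median spans of 294 and 291 kb. At 50 to 200 kb the 290 holding entries had 3.16 and the others 2.19, but median spans of 120.2 and 84.6 kb. Among the highest entries over 200 kb, those of CDKN3, SRPK2 (a kinase of splicing factors), CHID1 and NUP98 (a nuclear pore protein) held between 1 and 3 others each. The part of overlapping entries in these levels was not tested.

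Counted by accession, summed over transcripts and from the first to the last base of any of them, the long classes stood higher. The median was 3.46 RPKM at 50 to 200 kb (n = 2978) and 1.63 over 200 kb (n = 757), against 2.32 for all accessions. It was 0.575 under 2 kb, 1.45 at 2 to 10 kb and 2.84 at 10 to 50 kb. A sum grows with the number of transcripts, and longer accessions listed more of them. The highest entry of each accession alone had a median of 2.87 RPKM at 50 to 200 kb and 1.33 over 200 kb, against 2.09 for all. Of all accessions, 62.7% reached 1 RPKM, 22% reached 10 and 1.36% reached 100. Over 200 kb those shares were 60.9%, 16.4% and 0.528%.

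Several of the highest accessions over 200 kb had most of their sum in an entry shorter than the accession. Among the 334 accessions over 200 kb with 2 or more transcripts, the leading entry itself fell in a lower span class in 43.1%, and in 37.2% of the 290 with 1 gene name. LPP, a LIM-domain protein of focal adhesions on chromosome 15 (9880898 to 10556015), had 142 RPKM in sum. An entry of 8.38 kb near its 3′ end had 128 of these, one of 307 kb had 12.0 and the one of 675 kb had 1.77. CATSPERT, a CatSper component on chromosome 6, had 171 RPKM in an entry of 94.0 kb and 37.7 in one of 191 kb that overlapped it. CCDC7 had 75.4 and 29.1 in a pair of entries that did not overlap, and CCNY, a cyclin, had 48.0 in an entry of 96.3 kb against 19.5 and 5.91 in entries of over 200 kb. SPTBN1, a spectrin chain, had 58.5 in an entry of 104 kb and 7.05 in the one of 224 kb. CDKN3 was an exception, with 62.0 RPKM in its entry of 210.3 kb and 28.4 in one of 23.5 kb.

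The 3 accessions of largest span were single entries of low level. ANKS1B, a neuronal scaffold protein, covered 1337 kb of chromosome 9 and was at 0.387 RPKM. An unnamed entry, ENSCJAT00000001172, covered 1246 kb at 1.12, and LRP1B, a lipoprotein receptor family member, covered 1061 kb at 1.04.

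Summed RPKM was concentrated in few genes, and many of these were short. The 10 highest accessions held 17.8% of the summed RPKM of all 12211, the 100 highest 33.6% and the 1000 highest 65.9%. It took 391 accessions, 3.20% of them, to reach 50% of the sum, and the Gini coefficient, which is 0 for equal values and approaches 1 when 1 gene holds everything, was 0.809. LOC100406067 alone held 6.12%, and together with PRM1 11.0%. Of the 10 highest accessions 7 were under 2 kb, a class with 10.7% of accessions, and of the 100 highest 33 were. Of the 1000 highest 13.1% were. Shares of summed RPKM are shares of transcripts per length, not of reads.

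Within classes the short genes were the most unequal. Under 2 kb, 4 of 1307 accessions made up 50% of the class's sum, LOC100406067 and PRM1 made up 42.1%, and the Gini coefficient was 0.943. It was 0.816 at 2 to 10 kb, 0.743 at 10 to 50 kb, 0.726 at 50 to 200 kb and 0.748 over 200 kb. Entries under 2 kb were 9.08% of entries and held 27.1% of summed RPKM, whereas entries over 200 kb were 5.62% and held 1.77%. By accession, those under 2 kb held 26.2%, which was 12.9% once the 10 highest genes were left out.

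**Figure D3:**
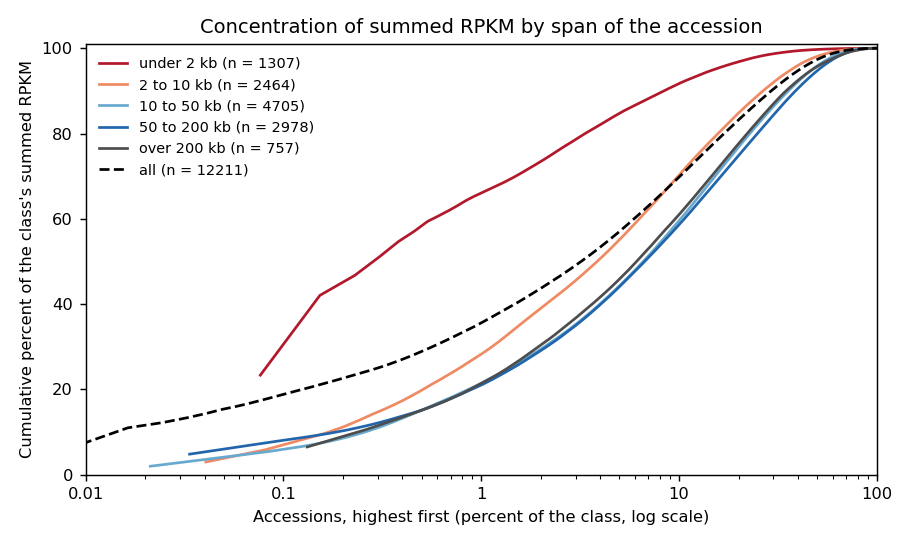
Cumulative percent of summed RPKM against the percent of accessions of the class, ranked from the highest (log scale), for 5 span classes and all 12211 accessions. The line for accessions under 2 kb lies above the others, with 42.1% of its sum in 2 genes.

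Most accessions listed 1 transcript, and those that listed more had higher summed levels. The number was 1 in 9413 accessions (77.1%), 2 in 2303, 3 in 407, 4 in 61 and 5 to 11 in 27. The median summed RPKM was 1.53, 5.46, 10.3, 13.0 and 21.1 in that order. The leading transcript alone had medians of 1.53, 3.72, 5.57, 7.08 and 8.50 RPKM. Both a sum and a highest value grow with the number of values by construction. The mean per listed transcript, chosen after seeing the data, does not, and its medians were 1.53, 2.73, 3.43, 3.26 and 3.86 RPKM, so the differences were much smaller on this measure and 3 and 4 transcripts stood in the other order. A transcript at 0 is not listed, so the number counts transcripts with a value rather than annotated ones.

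Longer accessions listed more transcripts, and the leading transcript was higher with more of them within each span class, with the same limit of construction. Spearman's rho between span and transcript number was 0.31 across the 12211 accessions of the column. The share with 2 or more was 0.918% under 2 kb, 11.6%, 22.8% and 36.7% in the next classes and 44.1% over 200 kb. At 10 to 50 kb the median of the leading transcript was 2.08 RPKM with 1 transcript, 4.16 with 2 and 5.91 with 3 or more. Over 200 kb it was 0.995, 1.79 and 5.10. At 2 to 10 kb it was 1.18, 3.20 and 3.91, and at 50 to 200 kb 1.96, 4.02 and 5.91. Under 2 kb it was 0.564 with 1 transcript and 8.32 with 2, the latter over 12 accessions. The very highest genes did not follow this order: 8 of the 10 highest accessions and 76 of the 100 highest had 1 transcript, close to the 77.1% of all, against 62% of the 1000 highest.

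**Figure D4:**
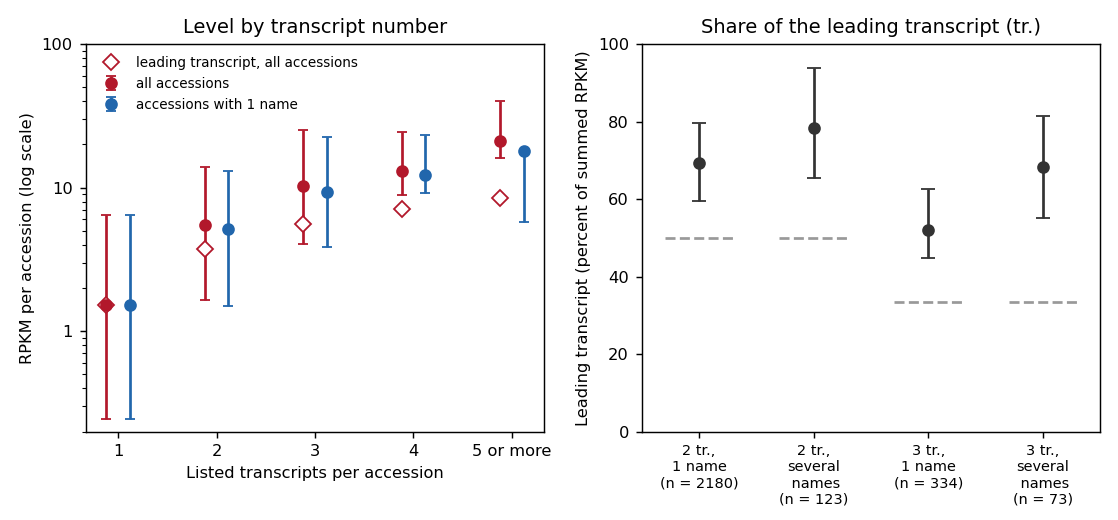
Left, median (points) and quartiles (bars) of summed RPKM per accession by number of listed transcripts, for all accessions (red) and those with 1 gene name (blue), with the median of the leading transcript as open diamonds, on a log scale. Right, median and quartiles of the leading transcript's percent of summed RPKM by transcript number and number of gene names, with the equal split as dashed lines; the medians for 2 transcripts are 69.3% with 1 name and 78.3% with several.

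Part of the transcript number counted neighbouring genes under 1 accession. In 243 accessions the listed entries carried 2 to 5 different gene names, unnamed entries not counted. This was the case for 5.34% of accessions with 2 transcripts, 17.9% with 3, 41.0% with 4 and 81.5% with 5 or more. Without them the median sums were 5.16 RPKM with 2 transcripts (n = 2180), 9.39 with 3 (n = 334), 12.2 with 4 (n = 36) and 18.0 with 5 or more (n = 5). The sums kept their order, but the medians of the leading transcript were 3.49, 4.93, 6.28 and 4.70 RPKM and did not. The last was 8.50 over all accessions with 5 or more. The mean per listed transcript had medians of 2.58, 3.13, 3.04 and 3.61 in these single-named accessions. The 5 single-named accessions of 5 or more transcripts were MELK (a kinase of dividing cells), ZNF709 (a zinc finger gene), MGAM (an intestinal glucosidase), LOC100414130 and A6MJX0_CALJA.

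The highest accessions with 5 or more transcripts were such joined neighbours. CCIN (calicin, a cytoskeletal protein of the sperm head) shared its accession with CLTA (clathrin light chain) and GLIPR2 on chromosome 1, 137963259 to 138055784. Its single entry of 1.94 kb was at 57.5 RPKM, the CLTA entries were at 24.6 and 8.62, and the GLIPR2 entries at 0.171 and 0.0436. On chromosome 22, 11 entries named LOC100387825 or after the zinc finger genes ZNF17, ZNF547 and ZNF749 summed to 83.9, and the leading one, a LOC100387825 entry, held 21.964 RPKM. NUP98 was joined with IL18BP (66.3 in sum), KPNA4, a nuclear import receptor, with IFT80, an intraflagellar transport protein (58.6), and PLAAT5 with LOC100397916 and LOC100404316 (53.8). In KPNA4 and IFT80 the leading KPNA4 entry had 35.7 RPKM and the 3 IFT80 entries 8.14, 7.37 and 1.83.

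The leading transcript is by definition the highest of its accession, so its share cannot lie below an equal split, and it is given as a description. With 2 transcripts its median share was 69.8% of the accession's RPKM (quartiles 59.5% and 80.1%), with 3 it was 54.4% (46.3% and 67.2%), with 4 it was 50.2% and with 5 or more 41.2%. An equal split would give 50%, 33.3% and 25% for 2, 3 and 4. Of the 2798 accessions with 2 or more transcripts, 151 had a leading share of at least 90%, which is 5.4%. Among the accessions with 2 transcripts, 25.9% had a leading share under 60%.

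The median leading share varied little with span, and it was higher at 100 RPKM or more. For 2 transcripts the median lay between 68.0% (12 accessions under 2 kb) and 70.5% (10 to 50 kb) over all span classes. By summed RPKM it was 69.8% below 1 RPKM, 68.6% from 1 to 10, 71.1% from 10 to 100 and 78.8% at 100 or more, the last over 36 accessions. In the same order, 4.24%, 4.56%, 8.05% and 25% of accessions had a leading share of 90% or more. Spearman's rho across the 2303 accessions was 0.0719 with summed RPKM and -0.0522 with span. Accessions that joined several names had higher shares, 78.3% (n = 123) against 69.3% (n = 2180) with 2 transcripts and 68.2% (n = 73) against 52.1% (n = 334) with 3. A share of 90% or more occurred in 33.3% of the joined pairs and 4.40% of those with 1 name.

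Among the 268 accessions with 3 or more transcripts and at least 10 RPKM, joined neighbours made up most of the 5 highest and 5 lowest leading shares. How many of the 268 were joined was not counted. Of all accessions, 17.9% with 3 transcripts, 41.0% with 4 and 81.5% with 5 or more were joined. The highest share, 97.9%, was that of COX17, a copper chaperone of cytochrome oxidase, with 38.9 RPKM against 0.728 and 0.113 for entries of POPDC2. LDHC, the lactate dehydrogenase of sperm, had 114 RPKM against 1.74 and 1.22 for LDHA, its widely expressed paralog next to it on chromosome 11, a share of 97.5%. These paralogs are alike in sequence, and how reads were divided between them is not given. HINT3 with TRMT11 (96.6%) and AURKC, the Aurora kinase of meiosis, with ZNF805 (96.1%) were of the same kind. The fifth was an unnamed entry of 4.50 kb at 39.6 RPKM whose accession otherwise listed BMP8A at 1.53 and 0.310.

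The 5 lowest shares came from 4 accessions with several names and 1 with a single name. All 5 listed 5 or more transcripts, so their equal split was lower by construction than with 3 or 4. The accession of PCDHB2, in the protocadherin cluster of chromosome 2 (37978348 to 38469072), listed 11 entries of 0.381 to 2.57 RPKM, and its leading share was 16.3%. On chromosome 22, an accession that joined zinc finger genes ZNF154, ZNF416 and ZNF606 with C19orf18 was led by an unnamed entry at 7.09 RPKM, with a share of 18.4%, and the LOC100387825 accession had 26.2%. KDM3B, a histone demethylase, joined with its neighbour FAM53C, had 23.6%. MELK had 26.0%, with 5 entries of 2.80 to 4.70 RPKM that shared nearly the same end and started near 2 positions.

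In pairs of transcripts with 1 name, the shorter one led more often than the longer in the deposited values. Nearly all such pairs overlapped, and how reads were divided between their entries is not given. Of 2180 such pairs, both ends differed by more than 50 bases in 47.8%, the 3′ end alone in 24.0%, the 5′ end alone in 15.3% and neither in 10.6%, and 2.34% did not overlap. The 2 entries had unequal spans in 2055 pairs, and the longer one led in 38.6% of these. That share was 44.3% where the 5′ end alone differed and 36.5% where the 3′ end alone did, whereas the longer entry led in 60.8% of the 51 pairs that did not overlap. It was 37.1% where the longer span was up to 1.1 times the shorter, 40.7% from 1.1 to 2 times, 37.7% from 2 to 10 times and 47.8% above, the last over 67 pairs. Which span led was not counted for accessions with 3 transcripts, and named genes went both ways. LOC100395785 was led by its longest entry, of 194 kb. CUL3, a scaffold of ubiquitin ligases on chromosome 6 (141036220 to 141140982), was led by its shortest. Its entry of 26.9 kb had 145 RPKM, and those of 104.7 and 104.8 kb, which had nearly the same 3′ end, had 61.1 and 45.8.

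Some pairs shared a span entirely and still differed in the deposited values, with the same limit on how reads were divided. CRISP2, a cysteine-rich secretory protein of the acrosome and sperm tail on chromosome 4, had entries at 155 and 68.4 RPKM with the same start and end (50909704 to 50931725). Its accession also listed CRISP1, an epididymal relative, at 0.0174. NUP98 had entries of 38.2 and 7.64 RPKM at 1 span. DYDC1 (363 RPKM, 18.0 kb) and MAT1A, the methionine adenosyltransferase of liver (7.23 RPKM, 149 kb), were joined on chromosome 12, and the smaller entry lay inside the larger.

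Gene lists chosen with earlier results of these data known were placed on the scale of span. Of 402 listed entries in 11 lists, 211 had a member entry, 13 had entries on X, Y or contigs alone and 178 had no entry under their name. Genes are summed by symbol here, and of all 10262 symbols 64.8% reached 1 RPKM and 21.8% reached 10, with a median of 2.51. The span given for a gene is that of its leading entry. Counts and medians cover the genes found, and a gene at 0 would have no entry.

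Spermatid genes were mostly high, from the shortest spans to the longest they had. Of 27 found among 40 listed, 26 reached 1 RPKM and 24 reached 10. Their median was 48.9 RPKM and their median span 11.1 kb. The longest span, 128 kb, was that of the PRM2 entry, which also covers SOCS1, and TEKT5 was next at 60.5 kb. PRM1, TNP1 and PRM2 led, and CATSPER1, the pore subunit of CatSper, was lowest at 0.550. Of 40 genes on the retroposed or intronless list, which includes a few genes with introns, 14 were found. These had a median span of 1.75 kb and a median of 36.2 RPKM. PGK2 was at 183, CAPZA3 at 161 and GK2 at 92.2, all under 2 kb, and CDYL2, at 74.9 kb, was lowest with 0.665. Of these 14 genes, 8 were under 2 kb.

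Meiotic chromosome genes and dynein chain genes covered longer spans, with mixed levels among the dyneins. Meiotic chromosome genes had a median of 22.7 RPKM over 15 genes found of 28 listed, and a median span of 39.8 kb. TEX12, a synaptonemal complex protein encoded in 1.59 kb, was at 171, HORMAD1 at 65.3 and SYCP2, at 83.9 kb, at 59.2, whereas SPO11, which makes meiotic double-strand breaks, was at 0.522. Of 14 dynein chain genes found among 22 listed, 11 reached 1 RPKM and 5 reached 10, with a median of 5.53. The small chains DYNLRB2 (9.27 kb) and DNALI1 (7.75 kb) were at 95.2 and 49.3, and among the 5 genes over 200 kb, all heavy chains, DNAH8 was at 14.3, DNAH6 at 7.90, DNAH9 at 3.44, DNAH11 at 0.376 and DNAH5 at 0.291. DYNLT5 was lowest at 0.00666.

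Compact housekeeping genes had medians near those of the meiotic list. Oxidative phosphorylation genes had 79 names listed, of which 42 were found. All 42 reached 1 RPKM and 33 reached 10, with a median of 24.96 RPKM and a median span of 8.61 kb. COX5B was at 245, UQCRQ at 221 and NDUFB9 at 170, and ATP5F1D was lowest at 2.16. Cytosolic ribosomal protein genes reached 10 RPKM in 24 of the 39 found of 78 listed, with a median of 20.02 and a range from 0.0459 (RPL27A) to 945 (RPS29), followed by RPLP2 at 389 and RPL35 at 262. Ribosomal protein genes have many near-identical copies, and how reads were divided among them is not given, so their single values are uncertain.

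The very long adhesion and neuronal genes had a median below that of all symbols. Of 30 found among 55 listed, 24 were over 200 kb, 11 reached 1 RPKM and 1 reached 10. The median of the 30 was 0.557 RPKM. The highest were FHIT, a dinucleotide hydrolase, at 24.4, WWOX, an oxidoreductase, at 9.65 and SPAG16, a protein of the sperm axoneme, at 5.94, none of them an adhesion or neuronal gene by its known role. CNTN4, a neuronal contactin, was lowest at 0.0364. The plot of span and RPKM for 6 lists shows the found spermatid genes ending at 128 kb, with the PRM2 entry. The plot also shows 5 dynein genes over 200 kb among the adhesion and neuronal genes, with values on both sides of their median.

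**Figure D5:**
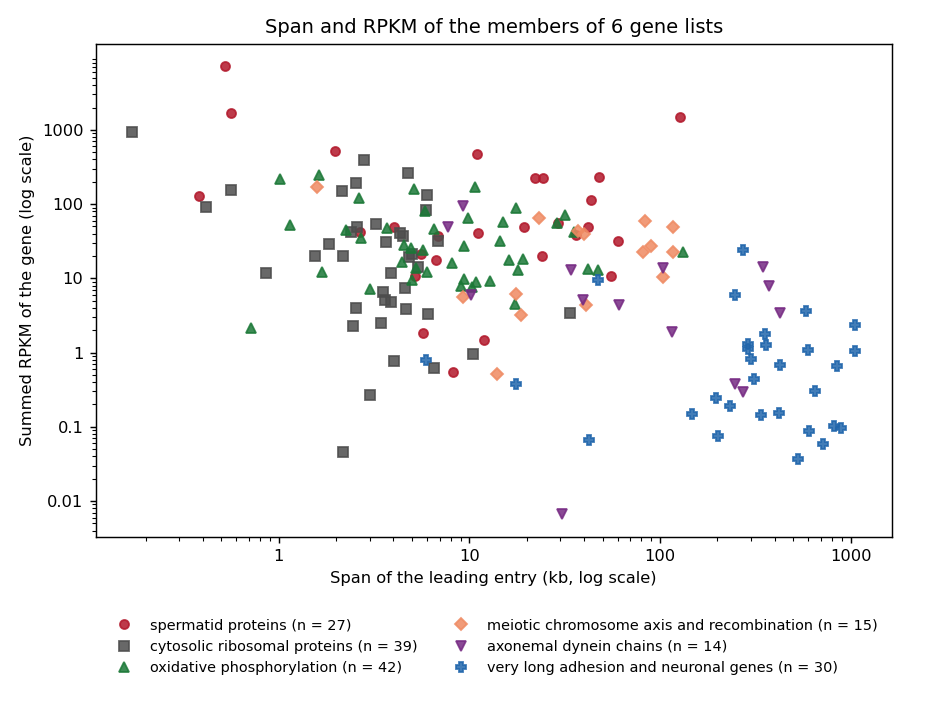
Summed RPKM of a gene against the span of its leading entry, both on log scales, for the found members of 6 gene lists (symbols). Spermatid genes lie mostly above 10 RPKM over spans of 0.380 to 128 kb, the longest being the PRM2 entry. Of the 30 very long adhesion and neuronal genes, with a median of 0.557 RPKM, 24 lie over 200 kb.

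Markers of the other cells of the testis spread over the middle spans. Leydig cell genes (5 found of 13 listed, median 20.2 RPKM) were led by INSL3 at 404, HSD17B3 at 21.9 and FDX1 at 20.2. The cholesterol transporter STAR was lowest of those found at 4.91. CYP17A1, HSD3B2 and LHCGR were among the 8 with no entry under their name. Sertoli cell genes (10 found of 20 listed, median 2.80) were led by CLU at 68.0, CLDN11 at 27.7 and the transferrin gene TF at 11.7. GDNF was lowest of those found at 0.0275. The Sertoli list holds ABP1, at 0.688, a symbol that is also used for an amine oxidase. Peritubular and vascular genes (8 found of 15 listed, median 3.30) ran from PDGFRB at 0.252 to PDGFRA at 5.46, TAGLN at 6.05 and ACTA2 at 19.4. The vascular genes PECAM1, VWF and CDH5 had no entry under their name, so the median does not cover them. Blood and immune genes (7 found of 12 listed, median 0.913) ran from CD79A at 0.0619 to FCER1G at 1.41, CD163 at 2.13 and HBB at 38.1. HBB is a gene of 1.53 kb. The part of these cell types in the span classes was not tested.

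Protein-coding entries on the X chromosome, outside the members, had a lower median of 0.574 RPKM (n = 637). Their highest class median was at 2 to 10 kb, with 0.949 RPKM, followed by 0.596 at 10 to 50 kb, 0.530 under 2 kb (n = 97), 0.354 at 50 to 200 kb and 0.328 over 200 kb, the last over 22 entries. The middle spans thus did not stand highest there as they did on the numbered chromosomes, a difference that was not tested.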

How the data were processed

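RNA of wild-type marmoset testis was measured by RNA-seq. The deposited values are RPKM per transcript, made by the authors and not changed here. Bowtie, TopHat and Cufflinks are named, with no role or version, in the submitters' processing notes. The sources used here do not give the read filters, the genome build or how the 2 replicates became 1 column. All of its 18365 entries were read, and 0 columns were left unmapped. The small RNA datasets were not used here.

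Names came from the table. LOC names became symbols through the RefSeq gene table of calJac240_pri, used for names alone (5887 member entries matched, 800 did not), 91 more entries were named from an Ensembl gene table, and 13070 of 15646 members had a symbol. Lists were matched with 21 older symbols.

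Medians, quartiles, shares, Gini coefficients and Spearman's rho were computed in Python 3.11.15 with pandas 2.3.3, numpy 2.4.6 and scipy 1.17.1, with figures from matplotlib 3.10.9, and the scripts were tested on simulated tables. No test was run, for want of replicate values. Pair ends closer than 50 bases counted as equal. No pseudocount was used and no low values were filtered.

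Genes named were the 5 highest of each span class, up to 10 over 200 kb with at least 10 RPKM, the 5 highest with 5 or more transcripts, the 5 highest and 5 lowest leading shares among accessions with 3 or more transcripts and at least 10 RPKM, the 3 largest spans, and the 3 highest and the lowest of each list. Neighbours, entries that share an accession with them and examples of shared spans were named after their values were seen. An entry that the rule names is not reported here. The members and lists were chosen with earlier results of these data known. Protein length and promoters, which had been planned, were not analysed here.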

Additional observations from a re-analysis of the deposited data

How the results depend on the processing

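Each of 17 values (5 span medians, 5 transcript-number medians, 4 shares of summed RPKM, 2 leading shares and 1 rank correlation) was recomputed under other settings, which gave 110 values. Of these 79 stayed within 1.5 times the reported value, 29 did not and 2 changed sign. The cause was not tested, except that thresholds and left-out genes change the set by construction. Some of the 79 could not move. Leaving out spans under 500 bases cannot change the medians of classes from 2 kb upward. For accessions with 1 transcript, the leading transcript, the mean per transcript and the sum are the same value. The count of 79 is thus no measure of stability. Counting accessions moved the medians at 50 to 200 kb to 3.46 RPKM and over 200 kb to 1.63. With entries of at least 0.1 RPKM, the medians under 2 kb and at 2 to 10 kb were 1.67 and 2.34. With entries of at least 1 RPKM, the 5 medians were 7.31, 5.33, 4.95, 4.27 and 3.05 from the shortest class to the longest, so the hump gave way to a steady fall. Restricted to entries with a symbol, a choice made after seeing the data, the median under 2 kb was 1.36. The leading transcript alone gave 5.57, 7.08 and 8.50 RPKM for 3, 4 and 5 or more transcripts, and the mean per listed transcript, added after seeing the data, gave 2.73, 3.43, 3.26 and 3.86 for 2, 3, 4 and 5 or more. Transcripts of at least 0.1 RPKM gave 2.34 for 1 transcript, and those of at least 1 RPKM gave 4.93, 10.9, 18.0 and 20.8 for 1 to 4. Without the 10 highest genes, the top 10 held 4.53%, the top 100 held 20.3% and genes under 2 kb 12.9% of summed RPKM. Without genes under 2 kb, the top 10 held 6.66% and the top 100 held 22.3%. The correlation of span and summed RPKM across accessions, 0.138, was -0.0377 among genes of at least 1 RPKM, 0.0900 without spans under 2 kb, 0.0865 for genes with 1 transcript and, in a split chosen after seeing the data, -0.0935 over 50 kb. The leading shares stayed within 1.5 times under all their settings. No paired analysis was possible because the 2 replicates were deposited as 1 column. Unknown depth limits how far low values, most frequent under 2 kb, can be read.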

Other observations

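Gene families, chosen after seeing the data and set out by symbol, differed in level within the same span class. Olfactory receptor genes, which are compact and act in odour sensing, had 23 entries under 2 kb with a median of 0.0375 RPKM, and none reached 1. Keratin-associated protein genes had 4 entries under 2 kb with a median of 0.135 RPKM. In the same class, 7 ribosomal protein entries had a median of 36.6 RPKM and all reached 10, and 4 histone entries had a median of 17.0. Zinc finger genes, a large family of DNA-binding proteins, had medians of 7.81 RPKM under 2 kb (n = 11), 2.34 at 2 to 10 kb (n = 70), 2.45 at 10 to 50 kb (n = 166), 1.17 at 50 to 200 kb (n = 40) and 1.13 over 200 kb (n = 11). The class under 2 kb thus held both very low and high families.

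Chromosomes differed in gene span. The median span of member entries ran from 11.6 kb on chromosome 22 (n = 908) to 40.4 kb on chromosome 3 (n = 674). The median RPKM ran from 1.32 on chromosome 8 to 2.43 on chromosome 14. It was 2.08 on chromosome 22 and 1.54 on chromosome 3.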
